A study of Mus musculus with 4 samples.

Results

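Immature olfactory neuron markers are here 10 genes for growth cone, adhesion and cytoskeletal proteins: Gap43, Gng8, Stmn1, Stmn2, Stmn4, Dcx, Tubb3, Dpysl3, Crmp1 and Ncam1. They were chosen by symbol, and all 10 were found among the 23337 gene symbols of the count files and passed the filter on low counts. The RNA-seq libraries were made from sorted Tomato-positive olfactory cells, each from 1 mouse of mixed strain background, and comprised 2 Lmnb1+/- (controls) and 2 Lmnb1-/- (mutants). Mice of both genotypes received 50 mg/kg methimazole, which destroys the olfactory epithelium, and the tissue regenerated over 4 weeks. In this model a Cre transgene under the cytokeratin 5 promoter deletes Lmnb1, the gene of the nuclear envelope protein lamin B1, in horizontal basal stem cells, and both genotypes carry the Cre-dependent Tomato reporter that marks those cells and their progeny. Several cell types that descend from these basal cells are thus pooled in each library. Each experimental group holds 1 control and 1 mutant. Per the labels, treatment, age, sex and parents differ between the groups and are shared within each, without being specified. Control 1 and mutant 1 belong to experimental group 1, control 2 and mutant 2 to experimental group 2.

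A new olfactory sensory neuron is born from a globose basal progenitor, extends an axon towards the olfactory bulb, and only later switches on odour transduction genes and the olfactory marker protein Omp. While the axon grows, the cell makes growth cone proteins such as Gap43, tubulin and the proteins that bind, bundle or release it, and adhesion molecules that hold the axon in fascicles. It also uses the G protein gamma subunit Gng8, which mature ciliated neurons replace with Gng13. Several of these genes are not particular to the stage: Ncam1 and Stmn1 are made by other cells, and Tubb3 persists in mature neurons.

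The sorted cells held both neuron stages and other lineages. Gene counts ranged from 14833396 to 23704638 per sample. In mutant 1, 39.4% of uniquely aligned reads lay outside annotated genes, compared with 22.1% to 24.9% in the other samples. Lmnb1 was measured at 20.6 and 18.8 CPM (counts scaled to the library total) in controls 1 and 2 and 14.1 and 10.1 CPM in mutants 1 and 2, and its log2 fold change of -0.72 ± 0.31 (SE) did not pass the test (adjusted p = 0.195). That count sums all exons, of which the deletion removes a part, so it is a weak check of the labels. All 15 of 15 mature neuron markers were lower in mutants, with a median log2 fold change of -1.35 and a summed level of 9872 to 22410 CPM in controls and 2907 to 12064 CPM in mutants. This list was chosen with earlier results of these data known. The paper had already reported many genes of mature olfactory neurons as lower in these mutants. The count of 15 is therefore not independent evidence. The median of the mature markers was -0.46 without control 1, -1.51 without control 2, -2.37 without mutant 1 and -0.43 without mutant 2, in fits with no block. With a sample left out, here and below, genotype is unbalanced over the experimental groups. The difference between groups then enters the value. Omp itself (-1.35 ± 0.35, adjusted p = 0.00714) lost its call in DESeq2 (adjusted p = 0.0674), with no filter on low counts (0.609), with CPM above 1 required in all samples (0.0544) and in each fit with no block. None of the 15 mature or 10 immature markers was at 0 counts in any sample.

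The median fold change of the immature markers with genotype was smaller than that of the mature ones. This difference was not tested, and both lists were chosen with earlier results of these data known. Stmn4 lay within the range of the mature markers. Of 10, 2 were lower in mutants, Stmn4 and Dcx, and 0 were higher (edgeR likelihood-ratio test, Benjamini-Hochberg adjusted p under 0.05 over 15438 genes, with the experimental group as a block). Over all tested genes 4.30% were lower and 1.28% higher. No member was higher at an unadjusted p under 0.05, in the quasi-likelihood test or in DESeq2 either. The median log2 fold change of the members was -0.30, with median ratios of mutant to control of -0.32 within the first experimental group and -0.27 within the second, beside a median of -0.01 over all genes. The fitted change was negative in 9 of 10 members, compared with 7884 of 15438 tested genes. In 7 members the level was lower in the mutant of both experimental groups, a pattern not counted over all genes. In 4 members, Gap43, Stmn2, Crmp1 and Ncam1, both mutants lay below both controls in CPM, a pattern shown by 13.3% of all tested genes. In bulk samples such as these, fewer cells of a type and less RNA per cell cannot be told apart.

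**Figure D1:**
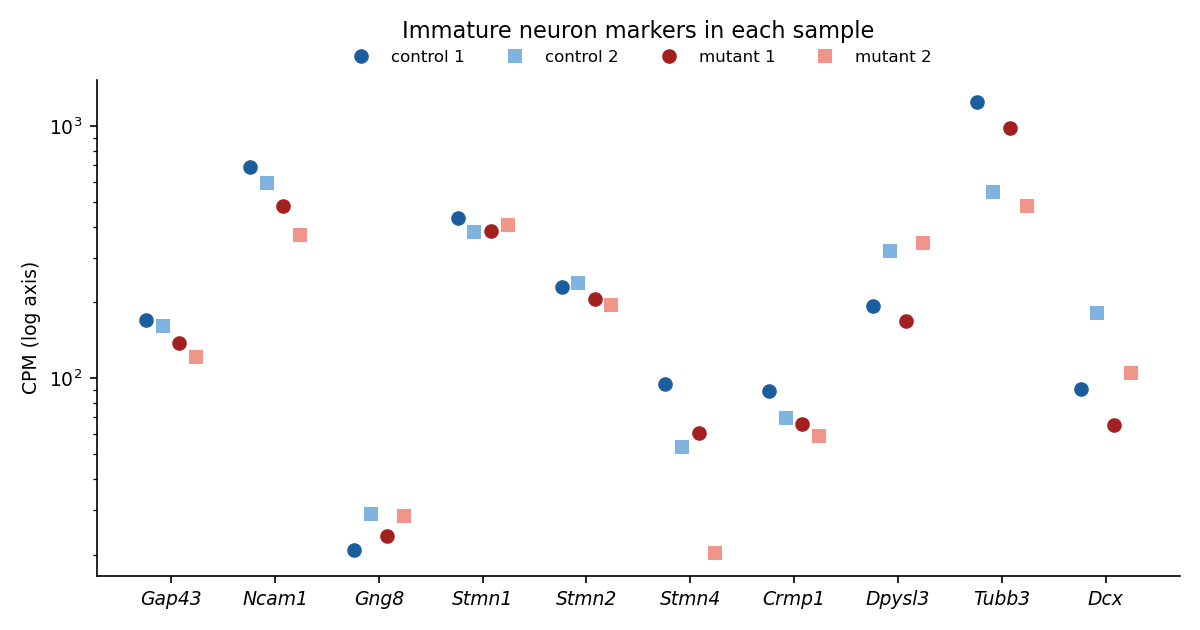
Level of each marker in CPM (log axis) in the 4 samples; circles are experimental group 1 and squares experimental group 2. Gap43, Stmn2, Crmp1 and Ncam1 have both mutants below both controls, whereas Tubb3, Stmn4, Dcx and Dpysl3 differ more between experimental groups.

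The membrane and adhesion markers come first. Gap43, a membrane-bound growth cone protein that regulates actin, stood at 171 and 161 CPM in controls 1 and 2 and at 138 and 122 CPM in mutants 1 and 2. Mutants were the lower samples in both experimental groups and the genotypes did not overlap. The log2 fold change was -0.35 ± 0.19 (SE, n = 2 per genotype, adjusted p = 0.351). Its nominal 95% interval ran from -0.73 to 0.02, so that a halving lay outside it. Ncam1, the neural cell adhesion molecule, was measured at 691 and 595 CPM in controls 1 and 2 and at 483 and 369 CPM in mutants 1 and 2. The genotypes again did not overlap, with a log2 fold change of -0.60 ± 0.25 (adjusted p = 0.166). Ncam1 was the member whose call depended most on the test, since its adjusted p was 0.0315 in the quasi-likelihood test and 0.000292 in DESeq2, for log2 fold changes of -0.60 and -0.59. Over its 11 alternative fits the adjusted p ranged from 0.000292 to 1.00. Both genes are also made by olfactory ensheathing glia. Of 8 glial markers tested, 1 was lower in mutants, Fabp7 (log2 fold change -1.04 ± 0.22, adjusted p = 0.000239), a fatty acid binding protein. Their median was -0.71 and their summed level was 184 to 189 CPM in controls and 125 to 183 CPM in mutants. None was at 0, Sox10 was near 12 CPM in every sample, and their part in the result was not tested.

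Among the relatives of Ncam1, 2 of the 5 other tested members of the NCAM and L1 families were lower in mutants. Ncam2, which marks axons of a part of the olfactory epithelium, had a log2 fold change of -0.89 ± 0.19 (adjusted p = 0.000565), and L1cam, an adhesion molecule of growing axons, one of -0.69 ± 0.18 (adjusted p = 0.00491). Nrcam gave 0.63 ± 0.21 (adjusted p = 0.0531), Chl1 0.28 ± 0.43 (adjusted p = 0.857) and Nfasc -0.23 ± 0.27 (adjusted p = 0.779). The family thus held values on both sides of 0. Of the 7 growth cone membrane proteins in the list that holds Gap43, none was called. The other 6 were mixed in sign, 4 positive and 2 negative. The list's median log2 fold change was 0.22, but -0.16 without control 1 and -0.21 without mutant 2. Basp1, the protein most like Gap43 in function, gave 0.29 ± 0.17 (adjusted p = 0.445), Marcksl1 0.41 ± 0.21 (adjusted p = 0.306), Gpm6a 0.24 ± 0.25 (adjusted p = 0.747) and Gpm6b 0.22 ± 0.20 (adjusted p = 0.682). Nrn1, a scarce membrane-anchored protein that promotes neurite growth, gave -1.19 ± 0.69 (adjusted p = 0.422), and Marcks, an actin-binding relative of Marcksl1, -0.03 ± 0.21 (adjusted p = 0.980).

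Gng8, the G protein gamma subunit of immature neurons, was the 1 member with a positive fitted value. It stood at 20.9 CPM in control 1 and 23.7 in mutant 1, and at 29.0 CPM in control 2 and 28.4 in mutant 2, so the mutant was above the control in experimental group 1 and just below it in group 2. The log2 fold change was 0.07 ± 0.24 (adjusted p = 0.949), with a 95% interval of -0.40 to 0.55. Gng13, the subunit of mature neurons, was measured at 358 and 165 CPM in controls and 246 and 62.6 CPM in mutants. It was lower in mutants by a log2 fold change of -0.97 ± 0.25 (adjusted p = 0.00453). Without the block this was -0.76 (adjusted p = 1.00), and with 1 sample left out it was -0.080 without control 1, -1.17 without control 2, -2.07 without mutant 1 and -0.052 without mutant 2, none of them called. Of the 10 gamma subunit genes tested of 12 listed, Gng13 was the 1 called lower and Gng5, a widely expressed subunit, the 1 called higher (0.54 ± 0.17, adjusted p = 0.028). The other tested subunits, Gng2, Gng3, Gng4, Gng7, Gng10, Gng11 and Gng12, had log2 fold changes between -0.43 and 0.53 and none passed the test.

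Within a sample, the ratio of an immature to a mature gene was higher in mutants for both pairs compared. Omp outnumbered Gap43 56.6-fold in control 1 and 38.8-fold in mutant 1, and 20.3-fold in control 2 and 7.48-fold in mutant 2, in CPM. Gng13 outnumbered Gng8 17.1-fold and 10.4-fold in control 1 and mutant 1, and 5.67-fold and 2.20-fold in control 2 and mutant 2. In log2 units the ratio of Gap43 to Omp was higher in the mutant by 0.54 in experimental group 1 and by 1.44 in group 2, and that of Gng8 to Gng13 by 0.72 and 1.36. The sum of the 10 members was 3253 and 2577 CPM in controls and 2580 and 2129 CPM in mutants. Its ratio to the summed mature markers went from 0.145 in control 1 to 0.214 in mutant 1 and from 0.261 in control 2 to 0.732 in mutant 2. These ratios rest on 1 control and 1 mutant each and carry no test. They follow from the levels of the single genes given here, so they are no further evidence. Other single pairs of an immature and a mature gene were not compared. The pattern need not hold for every member. Stmn4 had log2 ratios of mutant to control of -0.65 and -1.40 in experimental groups 1 and 2, beside -0.54 and -1.39 for Gng13.

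**Figure D2:**
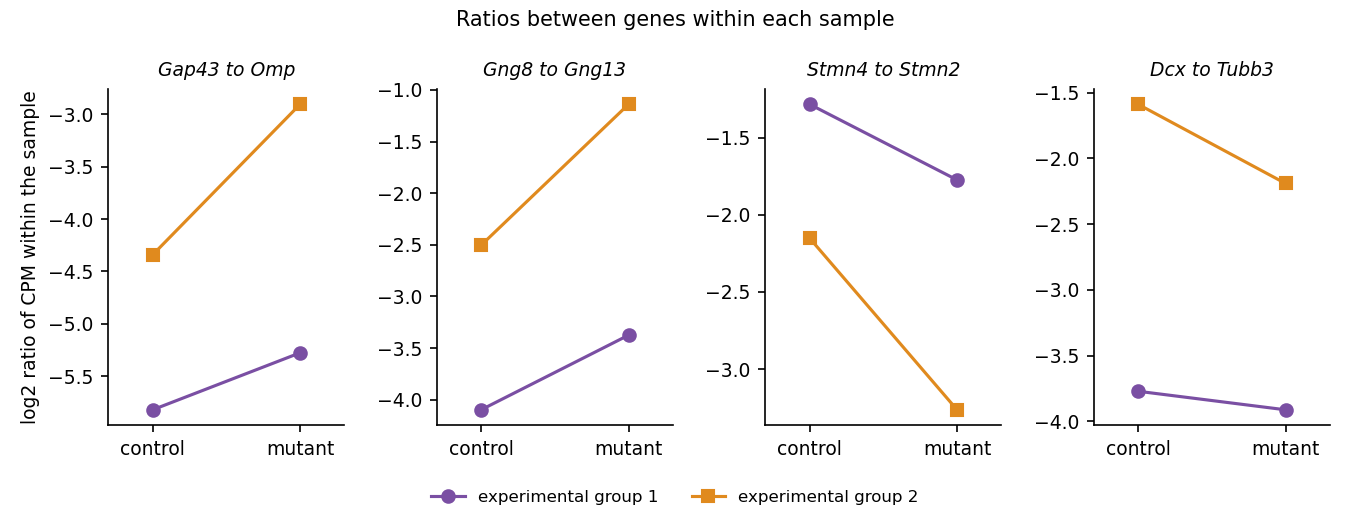
Log2 ratio of CPM between 2 genes of the same sample, with a line from the control to the mutant of each experimental group. Gap43 to Omp and Gng8 to Gng13 are higher in both mutants, by 0.54 to 1.44, whereas Stmn4 to Stmn2 and Dcx to Tubb3 are lower.

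The 3 stathmins among the members, small proteins that bind free tubulin dimers and promote microtubule disassembly, differed from each other. Stmn1, the form of dividing and newly born cells, was measured at 430 and 380 CPM in controls and 383 and 407 CPM in mutants, and the genotypes overlapped. Its log2 fold change was -0.04 ± 0.24 (adjusted p = 0.980; 95% interval -0.51 to 0.44). Stmn2, also called SCG10 and found in growth cones, stood at 230 and 238 CPM in controls and 207 and 195 CPM in mutants. Both mutants were below both controls, but by a log2 fold change of only -0.22 ± 0.21 (adjusted p = 0.700). Stmn4, the RB3 stathmin of neurons, was the member that differed most, with 94.6 CPM in control 1 and 60.5 in mutant 1, and 53.6 CPM in control 2 and 20.3 in mutant 2. Each mutant was below its own control, while mutant 1 was above control 2. The log2 fold change was -1.01 ± 0.20 (adjusted p = 0.000119), that is 0.496 of the control level, with ratios of -0.65 and -1.40 within experimental groups 1 and 2. Against Stmn2 in the same sample, Stmn4 was lower in mutants by 0.49 and 1.11 on the log2 scale. Stmn3, the only other stathmin gene listed, lay between them at -0.60 ± 0.21 (adjusted p = 0.0769).

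The Stmn4 call needed the pairing of samples. It passed in all 6 alternative fits that kept the block (adjusted p 0.000138 to 0.0233), but without the block the log2 fold change was -0.88 with an adjusted p of 1.00. With 1 sample left out and no block it was -0.39 without control 1, -1.19 without control 2, -1.88 without mutant 1 and -0.26 without mutant 2, with adjusted p between 0.431 and 1.00. The fit without the block called 0 of all tested genes lower (189 at an unadjusted p under 0.05), so every gene called lower here rests on the pairing.

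The collapsin response mediator proteins bind tubulin dimers and relay semaphorin signals in the growth cone. Crmp1 was measured at 89.2 and 69.7 CPM in controls and 66.0 and 58.9 CPM in mutants. Mutants were below controls without overlap, with a log2 fold change of -0.34 ± 0.16 (adjusted p = 0.276). Dpysl3, also called CRMP4, stood at 193 CPM in control 1 and 169 in mutant 1, and at 320 CPM in control 2 and 343 in mutant 2. The genotypes overlapped fully, and the log2 fold change of -0.05 ± 0.22 (adjusted p = 0.970) had a 95% interval of -0.48 to 0.39. None of the 5 family members was called, with Dpysl2 at -0.24 ± 0.22 (adjusted p = 0.700), Dpysl5 at 0.03 ± 0.18 (adjusted p = 0.980) and the scarce Dpysl4 at 0.24 ± 0.59 (adjusted p = 0.929).

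Tubb3, the neuronal beta tubulin and one of the most used neuron markers, stood at 1242 CPM in control 1 and 985 in mutant 1, and at 548 CPM in control 2 and 481 in mutant 2. The mutant was below the control in both experimental groups, but mutant 1 was above control 2, and the log2 fold change of -0.26 ± 0.26 did not pass the test (adjusted p = 0.735; 95% interval -0.78 to 0.26). None of the 6 beta tubulin genes tested of 8 listed was called. Tubb2a gave -0.15 ± 0.17 (adjusted p = 0.772), Tubb2b -0.18 ± 0.22 (adjusted p = 0.804), Tubb4b -0.59 ± 0.28 (adjusted p = 0.253), Tubb5 0.10 ± 0.28 (adjusted p = 0.937) and Tubb6 0.61 ± 0.44 (adjusted p = 0.580). Beta tubulin genes share long stretches of coding sequence and the counter sets aside reads with more than 1 alignment. Some of their reads may thus go uncounted. How many was not measured, for these genes or for the other members.

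Dcx, which encodes the microtubule-bundling protein doublecortin of migrating and newly formed neurons, was the second member called. It was measured at 91.0 CPM in control 1 and 65.5 in mutant 1, and at 182 CPM in control 2 and 105 in mutant 2. Each mutant was below its own control, and mutant 2 was above control 1. The log2 fold change was -0.63 ± 0.18 (adjusted p = 0.0148), a level 35.5% lower, with ratios of -0.47 and -0.79 in experimental groups 1 and 2. It passed in all 6 alternative fits with the block (adjusted p 0.00612 to 0.0425). Without the block the log2 fold change was -0.68 (adjusted p = 1.00), and with 1 sample left out it was -1.09 without control 1, -0.05 without control 2, -0.38 without mutant 1 and -1.03 without mutant 2, none of them called. Of the doublecortin-like kinases, Dclk3 was lower in mutants (log2 fold change -0.98 ± 0.18, adjusted p = 7.81e-06), while Dclk1 gave 0.03 ± 0.17 (adjusted p = 0.977) and Dclk2 -0.43 ± 0.28, which did not pass either.

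**Figure D3:**
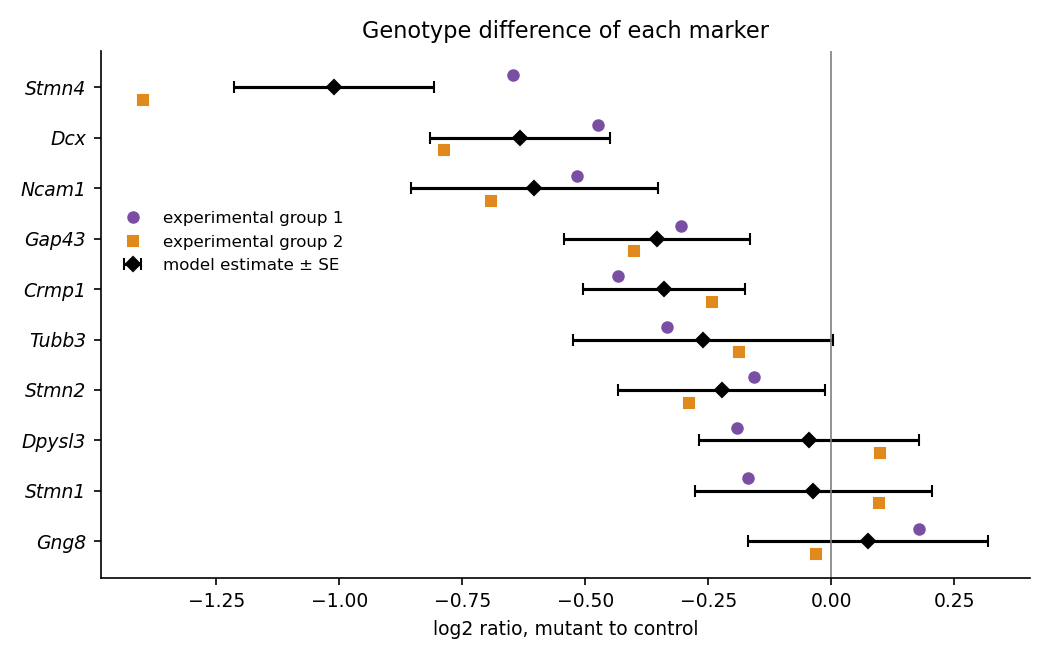
Log2 ratio of mutant to control for each marker, as the model estimate with its SE (diamonds) and as the ratio within experimental group 1 (circles) and group 2 (squares). Stmn4 and Dcx are the 2 members past the threshold, and Gng8, Stmn1 and Dpysl3 have ratios on both sides of 0.

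**Figure D4:**
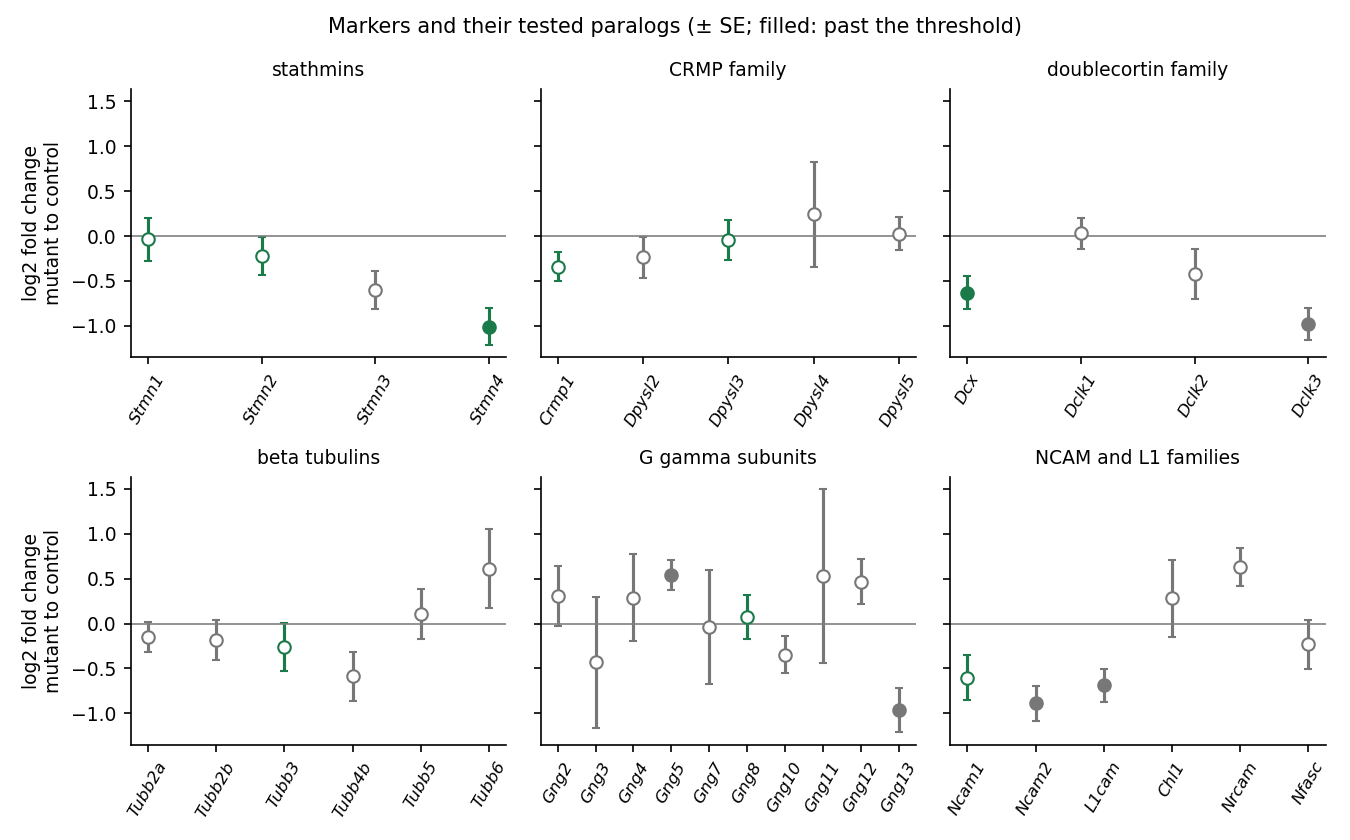
Log2 fold change of mutants against controls, with SE, for the markers (green) and their tested paralogs (grey); filled points passed the threshold. Stmn4, Dcx, Dclk3, Gng13, Ncam2 and L1cam were lower and Gng5 was higher.

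The wider lists gave the same mixed account. Of 21 axonal cytoskeleton and transport genes tested of 22 listed, 3 were lower and 0 higher, with a median log2 fold change of -0.35. The 3 were Map6, listed in the files as Mtap6, which stabilises microtubules (-0.80 ± 0.19, adjusted p = 0.00148), Rufy3, an adaptor of growing axons (-0.77 ± 0.21, adjusted p = 0.00956), and the kinesin Kif3c (-0.62 ± 0.19, adjusted p = 0.0238). Of 20 other immature neuron markers, 3 were lower and 0 higher, with a median of 0.05. They were Rtn1, an endoplasmic reticulum protein of neurons (-0.89 ± 0.21, adjusted p = 0.0019), the stress transcription factor Ddit3 (-0.67 ± 0.21, adjusted p = 0.0327) and the neuronal RNA-binding protein Elavl3 (-0.64 ± 0.21, adjusted p = 0.0446). Of 10 progenitor markers 2, Kit and Hes6, were higher in mutants, with a median of 0.43. Of 16 cell cycle genes 8 were higher, with a median of 0.83. Their summed level was 349 to 362 CPM in controls and 585 to 624 CPM in mutants. Of 7 horizontal basal cell markers 2, Krt15 and Egfr, were higher. Beside these counts, 4.30% of all tested genes were lower and 1.28% higher. Without the block, 6 of all tested genes were called higher. The members' median of -0.30 lay between that of the mature markers and that of the other immature markers. The part of shifts in cell make-up in any member's value was not tested.

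Several members differed more between experimental groups than between genotypes. In the same fit, group 2 was compared with group 1. Stmn4 and Tubb3 were lower in group 2 and Dcx and Dpysl3 higher, 2 and 2 of 10 members, beside 14.0% and 17.7% of all tested genes. The differences were -1.19 ± 0.20 (adjusted p = 2.36e-07) for Stmn4, -1.11 ± 0.26 (adjusted p = 0.000294) for Tubb3, 0.84 ± 0.18 (adjusted p = 4.84e-05) for Dcx and 0.88 ± 0.22 (adjusted p = 0.000729) for Dpysl3. These 4 calls held in the 3 alternatives tried for this comparison. Tubb3 was more than 2-fold apart between groups of the same genotype, and both samples of group 2 were below both of group 1 for Stmn4 and Tubb3. Both samples of group 2 were above both of group 1 for Gng8, Dcx and Dpysl3, although Gng8 did not pass (0.37 ± 0.24, adjusted p = 0.256). The share of all tested genes without overlap between groups was not counted, so this pattern is not shown to be particular to the members. The other 5 members differed by -0.30 to -0.02 and were not called. The absolute change with the experimental group was larger than that with genotype in 6 members.

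**Figure D5:**
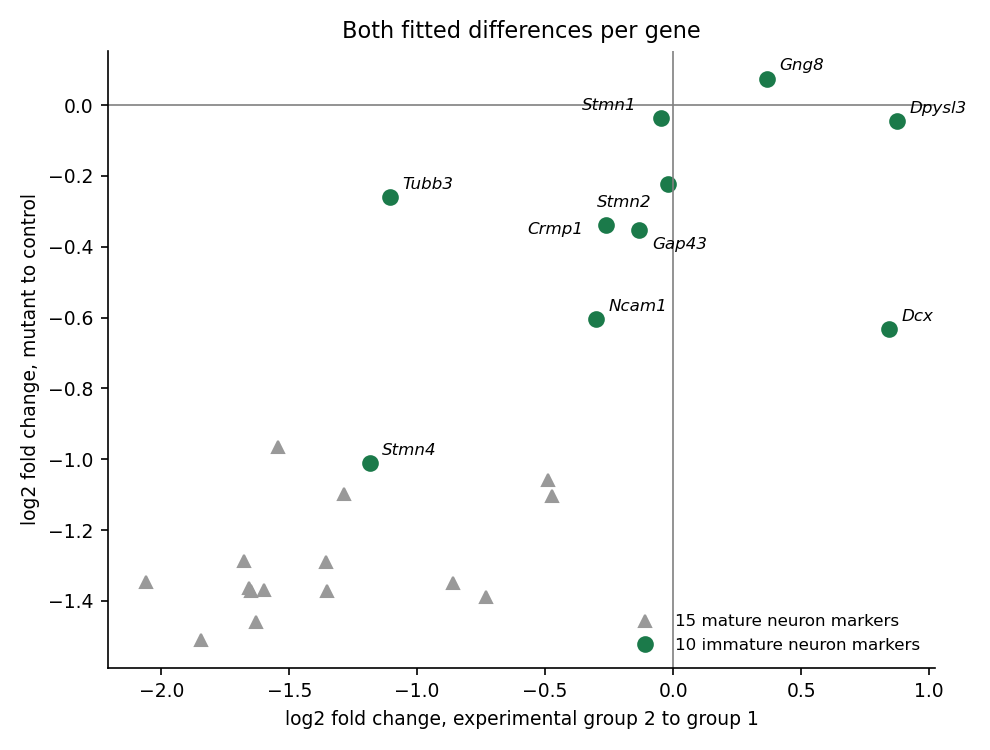
Fitted log2 fold change of mutants against controls (vertical) and of experimental group 2 against group 1 (horizontal), for the 10 immature markers (green) and 15 mature markers (grey triangles). Stmn4 lies near the mature markers on both axes, whereas Dcx is lower in mutants and higher in group 2.

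The promoter sequences of Dcx and Tubb3 are described next, a pair picked because the 2 genes moved in opposite directions between experimental groups. RefSeq sequence of the GRCm38.p6 build was at hand for 4 of the 10 members, Crmp1, Gng8, Tubb3 and Dcx, and the 250 bases before a listed start are shown for these 2 to let the pair be compared. The Tubb3 window lies at chr8:123411303-123411552 on the plus strand, and that of Dcx at chrX:143933220-143933469 on the minus strand, for the more upstream of its listed starts. By the gene positions given below, Tubb3 starts at chr8:123411424 and Dcx, on the minus strand, at chrX:143933311. A part of each window thus lies inside the gene as placed there. Capitals mark GGGCGG or its reverse complement (the core of SP1 sites), TAATTA (the core of homeodomain sites) and TATAAA (the TATA box).
Tubb3: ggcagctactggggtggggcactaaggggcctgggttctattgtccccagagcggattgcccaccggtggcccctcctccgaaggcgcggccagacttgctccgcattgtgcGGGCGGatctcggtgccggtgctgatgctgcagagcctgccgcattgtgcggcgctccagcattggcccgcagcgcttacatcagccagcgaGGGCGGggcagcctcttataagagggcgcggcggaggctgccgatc
Dcx: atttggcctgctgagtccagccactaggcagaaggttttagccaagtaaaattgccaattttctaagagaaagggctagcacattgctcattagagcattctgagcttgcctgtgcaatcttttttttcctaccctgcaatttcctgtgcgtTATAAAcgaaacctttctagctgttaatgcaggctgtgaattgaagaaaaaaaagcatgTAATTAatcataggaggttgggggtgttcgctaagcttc
The Tubb3 window held 2 copies of GGGCGG and neither other motif, with a GC content of 68.0%. The Dcx window held 1 TAATTA and 1 TATAAA and no GGGCGG, with a GC content of 41.6%. Among 32851 listed promoter windows of this length, 32.7% held GGGCGG, 4.84% TAATTA and 12.4% TATAAA on either strand, and the median GC content was 52.4%. The Gng8 window held 1 GGGCGG and the Crmp1 windows 5 and 2, on either strand. Gng8 and Crmp1 were not called between experimental groups, and any link of these motifs to the group differences was not tested. Neither the palindromic EBF motif, found in 0.779% of windows, nor the proneural E-box CAGATG, found in 14.4%, was in the windows of these 4 genes. A match is a description of letters and not a bound site.

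Other measures also separated the experimental groups. The mature markers were lower in group 2, with a median log2 difference of -1.54, and sustentacular cell markers were higher, with a median of 1.18 and a summed level of 4288 and 5167 CPM in group 1 and 12007 and 14071 CPM in group 2. Lines not assigned to a gene, most of them reads with several alignments, were 76.1% and 77.7% of all lines in group 1 and 45.4% and 43.1% in group 2. The part of either in the members' values was not tested. Treatment, parents, age, sex and library handling cannot be told apart in this comparison.

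The members covered a wide range of levels. Per kilobase of exon, Tubb3 was highest with a mean of 436 CPM per kb (258 to 665 over the 4 samples), followed by Stmn1 at 208 (198 to 224), Gap43 at 97.2 (80.1 to 112) and Ncam1 at 61.7 (42.6 to 79.7). The ranges of these 4 did not overlap each other. The fourth place depended on the sample, since Dpysl3 was at 51.9 and Ncam1 at 42.6 CPM per kb in mutant 2. Stmn2 at 38.8, Dpysl3 at 38.8 and Stmn4 at 29.9 CPM per kb had overlapping ranges and their order depended on the sample. Stmn4 (10.6 to 49.4) also overlapped Gng8 at 16.8 (13.7 to 19.1). Crmp1 at 10.1 and Dcx at 8.78 CPM per kb were the lowest and overlapped each other. Dcx has the longest summed exons, 12647 bases in mm10, compared with 1522 for Gng8, and transcripts that do not use all of them lower its value per kb. The tightest member across samples was Stmn1 and the widest Stmn4, whose lowest and highest samples were both outside the range of Stmn2.

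All 10 members lie on different chromosomes. Gap43 is at chr16:42248442-42340651, Gng8 at chr7:16891786-16895436, Stmn1 at chr4:134468320-134473843, Stmn2 at chr3:8509360-8561606 and Stmn4 at chr14:66344296-66361680 (mm10). Dcx is at chrX:143855842-143933311, Tubb3 at chr8:123411424-123422015, Dpysl3 at chr18:43320984-43438286, Crmp1 at chr5:37241940-37292133 and Ncam1 at chr9:49502136-49798925. Another annotated gene overlaps the exons of Ncam1, the antisense Gm11149, and of Stmn1, the miRNA gene Gm23634, over 4.81% and 3.43% of their exon bases. The strand setting of the counting was not given in the sources used here, so reads in those stretches may belong to either gene.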

How the data were processed

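RNA-seq counts of 4 samples were analysed. Per the labels and the study's methods, the authors depleted ribosomal RNA, removed remaining ribosomal reads with Bowtie2 2.0.6, aligned the rest to mm10 with TopHat2 2.0.7 and counted them with HTSeq; the deposited files hold unnormalized read counts by gene symbol, with 5 tally lines that were left out of totals and tests. Genes with CPM above 1 in at least 2 samples (15438) were fitted in edgeR 4.0.16 (R 4.3.3) with TMM factors, common, trended and tagwise dispersions, and terms for genotype and experimental group. Test, filter and model were taken from the study, but the inputs differ: its printed code counted the tally lines as rows and in library totals, so its scaling and the set of genes kept were not the same. Likelihood-ratio tests of both terms were adjusted by the Benjamini-Hochberg method over all tested genes, threshold 0.05. SE are Wald errors from the fit, and intervals are nominal 95% normal intervals built on them. Both treat each gene's estimated dispersion as known, so their actual coverage was not established. Ratios within an experimental group use log2 CPM with a prior count of 2.

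The block rests on the series' design text, by which a control and mutant of 1 group share parents, age, sex and handling; deviations of same-numbered samples correlated across genes (r = 0.52). Every sample is a separate mouse. With 2 samples per genotype no permutation of labels could reach the threshold. Alternatives were the quasi-likelihood test, DESeq2 1.42.0, no block, RLE factors, no filter, CPM above 1 in all 4 samples, a background subtracted from mutant 1 (1.81 counts per kb of exon, from 3739 genes silent in the other samples), leaving out each sample, and each experimental group alone. Gene models were matched by symbol to GENCODE for mm10 (22857 of 23337 symbols). Genes named are the members, their tested paralogs, the genes past the threshold in each list (at most 5), Omp, Gng13, Lmnb1 and the 5 genes nearest the members' median profile; further genes of a list given as examples were chosen after their values were seen. The members and lists were chosen with earlier results of these data known. The depth, 14833396 to 23704638 gene counts per sample, put every member at 299 counts or more in each sample, so the spread between mice, not counting error, sets the precision. The strand setting of the counting was not given in the sources used here.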

Additional observations from a re-analysis of the deposited data

Results flagged for a closer look

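Gng8, Stmn1 and Dpysl3 had log2 ratios of mutant to control on both sides of 0. The ratios were 0.18 in experimental group 1 and -0.031 in group 2 for Gng8, -0.17 and 0.10 for Stmn1, and -0.19 and 0.10 for Dpysl3. With 1 control and 1 mutant in each group, the difference between groups was not tested. Mutant 1 had 39.4% of its uniquely aligned reads outside annotated genes, a quantity no comparison above uses. After a background was subtracted from that sample, 2 members, Stmn4 and Dcx, were called lower.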

How the results depend on the processing

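Without the replicate block, 0 genes were called lower (189 at an unadjusted p under 0.05 in edgeR) and 6 higher, and 0 members were called lower, compared with 664, 197 and 2 with it. The quasi-likelihood test called 117 genes higher. Leaving out 1 sample was fitted without the block, since the blocked model would then have no residual degrees of freedom; the lone sample is assumed to vary like the others. These fits called 0 to 5 genes lower, 3 to 33 higher and 0 members lower, and the members' median log2 fold change ranged from -0.41 to -0.23. Among them the direction turned for Gng8 (-0.15 to 0.36), Stmn1 (-0.083 to 0.062), Tubb3 (-0.91 to 0.43) and Dpysl3 (-0.57 to 0.45), none of them called. In all, 120 of 130 alternative values of the members' genotype change kept their direction, and all 30 of the experimental group change did. The quasi-likelihood test and DESeq2 each called 3 members lower, adding Ncam1. With a sample left out and no block, genotype is unbalanced over the experimental groups. The difference between groups then enters the genotype value by construction. Tubb3, for example, differed by -1.11 from group 1 to group 2 and gave 0.43 without control 1. Dpysl3 differed by 0.88 and gave 0.45 without control 2. Other causes of the differences between fits were not tested, beyond the lack of pairing and fewer samples that the alternatives carry by construction.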

Other observations

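The median profile of the 10 members over the 4 samples, each gene centred on its own mean, was 0.16 and 0.14 in controls and -0.09 and -0.20 in mutants on the log2 scale. The tested genes nearest to it were Paf1, 5730494N06Rik, Nme7, Mars2 and Fam107b, with root-mean-square distances of 0.0132 to 0.027. Such a shape is common over 4 samples, since 354 of 15428 other genes lay within 0.1 of it. Fam107b, for example, was measured at 135 and 138 CPM in controls and 114 and 108 CPM in mutants.

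Between experimental groups the lists went both ways. In group 2, 8 of 21 axonal cytoskeleton and transport genes were higher and 3 lower, and 3 of 6 beta tubulins and 2 of 4 stathmins were lower, beside 17.7% higher and 14.0% lower over all tested genes. Among the axonal cytoskeleton genes, Map2, listed as Mtap2, differed by 1.21 (adjusted p = 2.43e-11), Mapt by 1.05 (adjusted p = 2.05e-06) and Map1b, listed as Mtap1b, by 1.10 (adjusted p = 0.000476) in edgeR. Kif3c differed by -0.93 (adjusted p = 1.53e-05) and Map6 by -0.76 (adjusted p = 0.000414), the direction of Stmn4 and Tubb3. These genes were singled out after their values were seen.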
